A study of Homo sapiens with 2 samples.

Results

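The genes of cholesterol and fatty acid synthesis were followed through 2 ChIPmentation peak lists from PANC-1, an established cell line of human pancreatic ductal adenocarcinoma. ChIPmentation is chromatin immunoprecipitation in which Tn5 transposase adds the sequencing adapters to the bound chromatin. Cells had been given the solvent DMSO or inflachromene, a small molecule known to bind HMGB1 and HMGB2, and both cultures were crosslinked with EGS and then formaldehyde. Each treatment had 1 library of this single line, so the values compare 2 libraries, carry no replicate check and allow no test. Which protein the antibody recognises is not given in the sources used here, nor are dose and duration, so a peak is reported as a peak and not as the binding of a named protein.

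The set held 34 named genes of 19974 protein-coding genes on chromosomes 1 to 22 and X. It was divided into 5 regulators, 7 genes of mevalonate steps, 11 of sterol steps, 1 of sterol transport and 10 of fatty acid steps. A gene was counted in a list when the summit of a peak, its highest point, lay within 1000 bp of either end of its RefSeq gene model. Strength was read as the pileup, the number of sequenced fragments over the summit, which was recovered from the deposited values.

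Both branches start from cytosolic acetyl-CoA. The mevalonate steps build isoprenoid units, the sterol steps turn squalene into cholesterol, and the fatty acid steps elongate, desaturate and activate acyl chains. The transcription factors SREBP1 and SREBP2, products of SREBF1 and SREBF2, switch on most of these genes when sterols are low. SCAP escorts them to the Golgi for cleavage, and the INSIG proteins hold them back in the endoplasmic reticulum. SREBPs are known to act together with the CCAAT-binding factor NF-Y and with SP factors at promoters.

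The promoters of 8 members are shown because most of the peaks lay there and because they carry the letters that differed most from other promoters. Each line gives the 250 bases before the annotated start, from RefSeq on GRCh38.p14. Capitals mark CCAAT or its complement ATTGG and, in SREBF2 alone, a match to the sterol regulatory element TCACNCCAC.
SREBF2: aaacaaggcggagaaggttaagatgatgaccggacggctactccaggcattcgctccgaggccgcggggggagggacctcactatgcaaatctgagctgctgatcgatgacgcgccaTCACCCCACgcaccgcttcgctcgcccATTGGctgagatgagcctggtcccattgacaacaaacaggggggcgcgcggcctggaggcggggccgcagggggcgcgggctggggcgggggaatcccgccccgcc
HMGCS1: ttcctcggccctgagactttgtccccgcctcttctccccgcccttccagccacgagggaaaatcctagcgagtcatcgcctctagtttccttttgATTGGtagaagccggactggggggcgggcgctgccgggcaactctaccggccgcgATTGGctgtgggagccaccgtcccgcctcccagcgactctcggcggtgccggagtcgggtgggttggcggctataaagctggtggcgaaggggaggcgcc
MVD: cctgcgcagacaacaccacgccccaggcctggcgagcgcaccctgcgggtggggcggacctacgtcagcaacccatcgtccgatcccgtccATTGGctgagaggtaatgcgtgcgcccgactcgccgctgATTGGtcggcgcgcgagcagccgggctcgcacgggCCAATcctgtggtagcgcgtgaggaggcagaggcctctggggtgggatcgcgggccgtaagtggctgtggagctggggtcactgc
MSMO1: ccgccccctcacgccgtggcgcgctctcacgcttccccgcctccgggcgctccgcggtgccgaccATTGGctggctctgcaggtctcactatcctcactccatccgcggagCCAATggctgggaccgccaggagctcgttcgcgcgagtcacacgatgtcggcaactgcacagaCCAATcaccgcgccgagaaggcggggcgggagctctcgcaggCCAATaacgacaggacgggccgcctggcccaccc
NSDHL: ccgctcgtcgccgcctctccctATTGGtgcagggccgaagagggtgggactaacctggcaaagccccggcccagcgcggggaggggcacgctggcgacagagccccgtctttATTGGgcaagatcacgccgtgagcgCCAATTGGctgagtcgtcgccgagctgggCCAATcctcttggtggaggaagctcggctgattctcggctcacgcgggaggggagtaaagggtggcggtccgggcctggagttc
SCD: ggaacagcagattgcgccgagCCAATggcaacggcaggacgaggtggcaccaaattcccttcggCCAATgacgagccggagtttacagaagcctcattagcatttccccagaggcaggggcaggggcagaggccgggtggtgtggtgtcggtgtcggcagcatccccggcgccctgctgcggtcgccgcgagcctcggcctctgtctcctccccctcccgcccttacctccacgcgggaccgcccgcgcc
ACSL3: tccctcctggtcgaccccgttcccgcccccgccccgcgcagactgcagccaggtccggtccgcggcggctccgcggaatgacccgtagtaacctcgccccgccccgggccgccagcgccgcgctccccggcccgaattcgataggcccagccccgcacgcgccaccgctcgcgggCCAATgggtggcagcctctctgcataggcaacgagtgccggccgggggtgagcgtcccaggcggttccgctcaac
ELOVL5: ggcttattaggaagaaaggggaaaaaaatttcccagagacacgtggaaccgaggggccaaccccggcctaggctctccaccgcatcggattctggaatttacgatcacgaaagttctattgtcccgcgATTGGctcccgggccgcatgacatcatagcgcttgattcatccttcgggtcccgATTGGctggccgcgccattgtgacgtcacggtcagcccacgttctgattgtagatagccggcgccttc

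These stretches lie at chr22:41832855-41833104 (plus strand) for SREBF2, chr5:43313413-43313662 (minus) for HMGCS1, chr16:88663092-88663341 (minus) for MVD and chr4:165327419-165327668 (plus) for MSMO1. The others lie at chrX:152830813-152831062 (plus) for NSDHL, chr10:100346983-100347232 (plus) for SCD, chr2:222860786-222861035 (plus) for ACSL3 and chr6:53348951-53349200 (minus) for ELOVL5. All 250 bases lay inside a peak in both libraries at 7 of the 8 genes, and at NSDHL the inflachromene peak held 227 of them. These 8 promoters were chosen, and the same share over all members or all genes was not computed. Coverage varied among the other members. At CYP51A1, STARD4, PMVK and HSD17B7 all 250 bases also lay in a peak in both libraries. At SREBF1, ELOVL6, ACSL1 and FADS2 no base before any annotated start searched lay in a peak in either library. The DMSO summit lay 165 bases before the start at SREBF2, where the sterol regulatory element begins 133 bases before the start and the ATTGG at 106. It lay 80 bases before the start at MVD, whose 3 CCAAT matches begin 85 to 159 bases before it, and 100 at ACSL3, whose single match begins at 75. At MSMO1, with 4 matches, it lay at 158, and at NSDHL, with 5 matches, of which 2 overlap, at 259. It lay at 293 at HMGCS1 (matches at 155 and 100), 137 at SCD (229 and 186) and 18 at ELOVL5 (122 and 68). In inflachromene the summit lay at 142 at MVD and 35 at MSMO1, but at 170 at SREBF2 and 105 at ACSL3. Whether summits lie closer to these letters than to other bases was not tested.

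In the DMSO library 29 of the 34 genes had a summit at an end, against 45.7% of all protein-coding genes. In the inflachromene library 27 had one, against 38.0%. All 27 were among the 29, so that 27 members were in both lists, against 36.3% of all genes, and none in inflachromene alone, against 4.45% of the genes in that list. IDI1 and TM7SF2 were in DMSO alone, 2 of 29 members against 20.6% of all genes with a DMSO summit. The median DMSO pileup was 36 fragments at the 29 members and 28 at all genes with a DMSO summit. The part of pileup in the 2 shares was not tested. SCAP, PMVK, FDFT1, ELOVL6 and ACSL1 were in neither list by this rule. By step, both lists held 4 of 5 regulators, 5 of 7 mevalonate, 9 of 11 sterol and 8 of 10 fatty acid genes and the sterol carrier gene STARD4. These shares do not separate the steps.

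**Figure D1:**
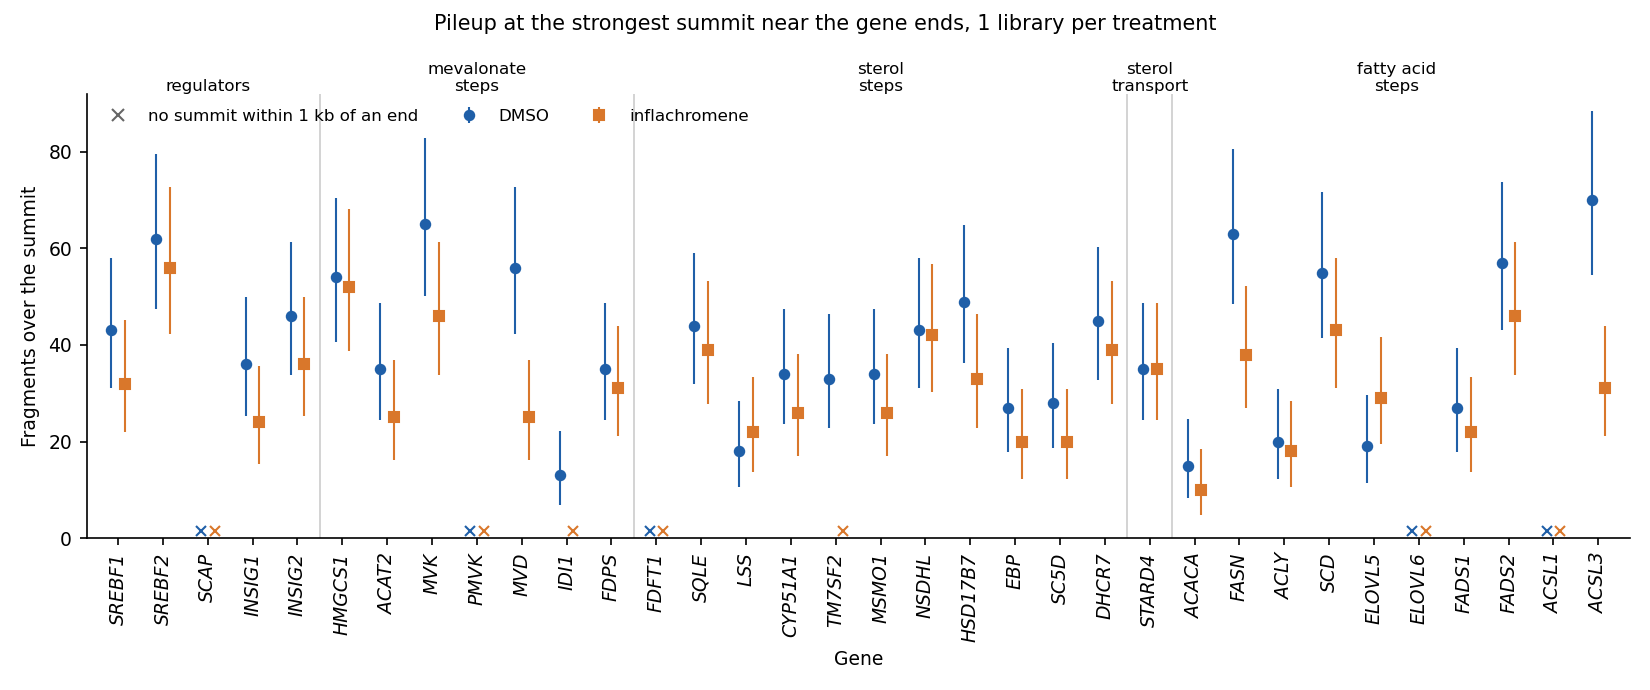
Fragments over the strongest summit within 1 kb of a gene end (vertical axis) for the 34 genes, grouped by step, in the DMSO (circles) and inflachromene (squares) libraries. Bars are exact Poisson 95% intervals for counting error only, and a cross marks a list without a summit there; the inflachromene value lies below the DMSO value at 24 of the 27 genes with both.

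Where the strand was known, the strongest DMSO peaks sat near the 5′ ends of the gene models. The gene's strand was known for 26 members with a DMSO summit, and at all 26 the strongest summit was nearer the 5′ end. The same share over all genes was not computed, so this count does not set the members apart. The end of a gene model need not be an annotated start: at ACLY the DMSO summit lay 11502 bp from the nearest one. Of the 29 summits 21 lay within 200 bp of an end (72.6% of all genes with a DMSO summit had one that close), and the farthest, at FADS2, lay at 932 bp. Of the 29 peaks 11 also lay within 1000 bp of an end of another coding gene, against 31.6% for all genes with a DMSO summit. These pairs were SREBF2 with CCDC134, ACAT2 with SOD2, MVK with MMAB, IDI1 with WDR37, FDPS with PKLR and TM7SF2 with VPS51. The remaining pairs were NSDHL with CETN2, EBP with PORCN, ACACA with TADA2A, ACLY with ODAD4 and FADS1 with FADS2. A peak of such a pair cannot be credited to 1 gene.

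**Figure D2:**
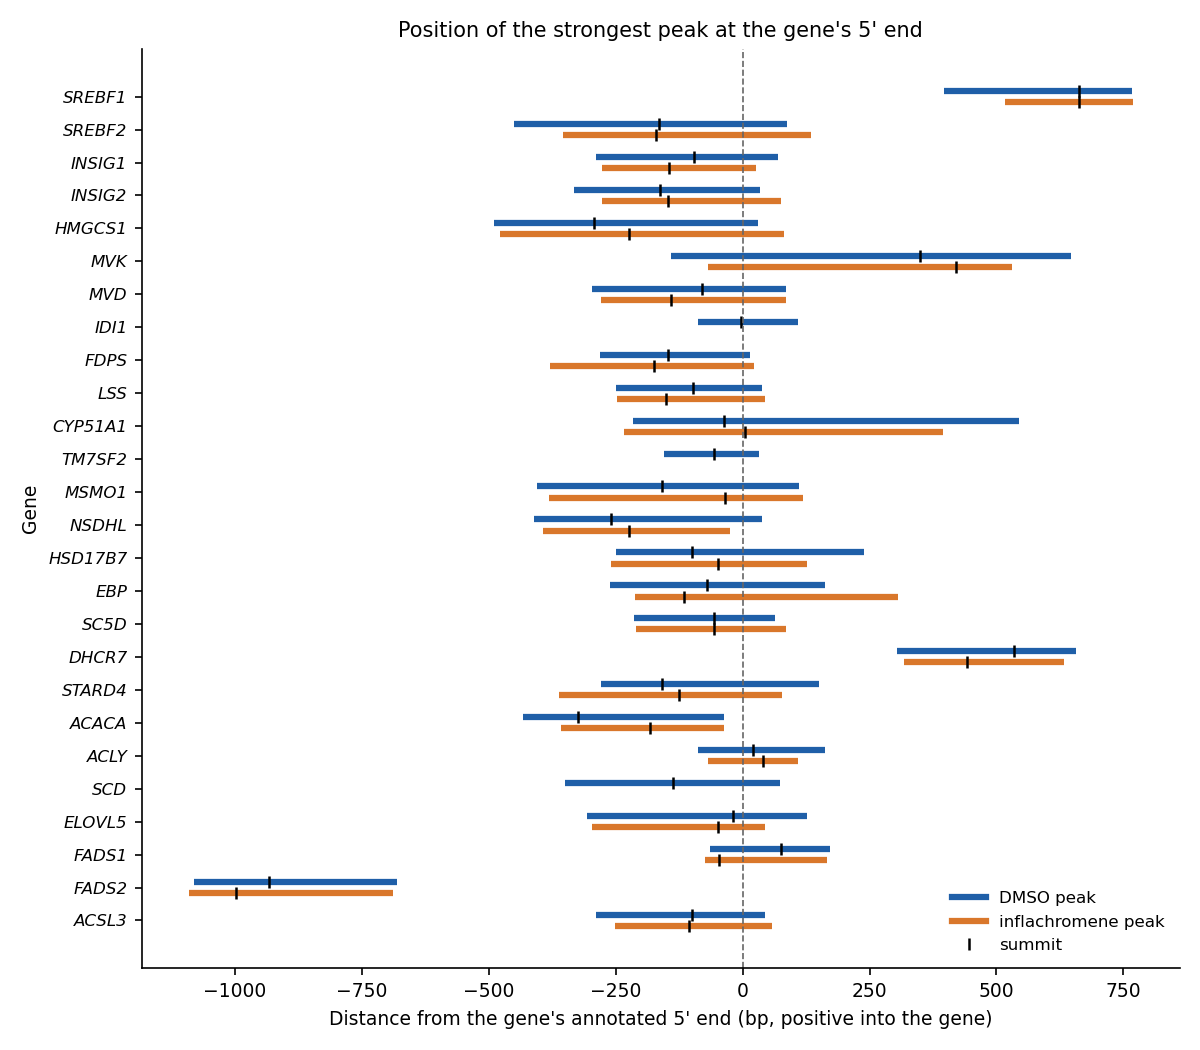
Extent of the strongest peak (bars) and its summit (ticks) in bp from the annotated 5′ end of the gene, with positive values inside it, for the 26 members that had a peak and whose strand the promoter table gives. SCD has no inflachromene bar because its strongest summit in that library lay at the 3′ end; most DMSO summits lie just before the 5′ end, while those of SREBF1, MVK, DHCR7, ACLY and FADS1 lie inside the gene and that of FADS2 lies 932 bp before it.

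Among the regulators, SREBF2 had the strongest peak, on chromosome 22 (41832655 to 41833192), with 62 fragments in DMSO and 56 in inflachromene. Its fold enrichment over the local background was 16.4 and 14.8, higher than at 96.7% and 96.9% of the peaks in the respective lists. SREBF1 had 43 and 32 fragments, but over a DMSO background of 6.16 fragments its fold enrichment was 6.14 and 5.77. Its summit lay at the same base in both libraries, 663 bp inside the gene. The peak at SREBF2 thus stood much further above its surroundings than that at SREBF1 in both libraries. The SREBF2 peak also lies at an end of CCDC134 and cannot be credited to SREBF2 alone. The 2 sites also differ, since the SREBF1 summit lies inside the gene and no base of its promoter window lay in a peak. INSIG2 had 46 and 36 fragments and INSIG1 had 36 and 24.

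Of the mevalonate genes, HMGCS1, which makes HMG-CoA, had 54 fragments in DMSO and 52 in inflachromene. MVK, the mevalonate kinase gene, had 65 and 46. MVD, encoding the decarboxylase that yields isopentenyl diphosphate, had 56 fragments in DMSO, with a counting interval of 42.3 to 72.7, and 25 in inflachromene, with one of 16.2 to 36.9. The MVD intervals did not overlap, whereas those of HMGCS1 nearly coincided. ACAT2, the cytosolic acetoacetyl-CoA thiolase gene, had 35 and 25 fragments, and FDPS, the farnesyl diphosphate synthase gene, 35 and 31. A second, weaker DMSO peak with 16 fragments lay just beyond the 3′ end of MVD.

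Of the sterol genes, SQLE, encoding squalene epoxidase, had 44 fragments in DMSO and 39 in inflachromene. LSS, the lanosterol synthase gene of the next step, had 18 and 22 and was the only sterol step gene with more fragments in inflachromene. The genes that remove or reshape the methyl groups of lanosterol had 34 and 26 fragments at CYP51A1 and again 34 and 26 at MSMO1. NSDHL had 43 and 42, and HSD17B7, a reductase gene of the same complex, had 49 and 33. The late genes EBP, SC5D and DHCR7, which shift, introduce and reduce double bonds of the sterol, had 27 and 20, 28 and 20, and 45 and 39. TM7SF2, a sterol reductase gene on chromosome 11 (65111717 to 65111904), had 33 fragments in DMSO and no inflachromene summit within 1000 bp. The nearest inflachromene summit, with 49 fragments, lay 1652 bp beyond the 3′ end and 6010 bp from the annotated start. The DMSO summit lay 56 bp before that start. TM7SF2 was thus in both lists with a window of 2500 bp, but the inflachromene summit was not at the site of this DMSO peak. The DMSO peak was 188 bp wide, with a fold enrichment of 6.23 over a background of 4.46 fragments. STARD4, the carrier that moves cholesterol between membranes, had 35 fragments in each library.

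The DMSO pileups of the fatty acid genes ran from 15 to 70 fragments, against 13 to 65 at the mevalonate genes. ACSL3, which activates long-chain fatty acids, had the highest pileup of all members, 70 fragments in DMSO (54.6 to 88.4), and 31 in inflachromene (21.1 to 44.0), on chromosome 2 (222860748 to 222861081). FASN, the fatty acid synthase gene, had 63 fragments (48.4 to 80.6) and 38 (26.9 to 52.2), over a DMSO background of 5.75. The ACSL3 intervals did not overlap and those of FASN did. FADS2, a desaturase gene, had 57 and 46 fragments at its upstream peak, which lies inside the body of FADS1, and FADS1 had 27 and 22 at a peak that it shares with FADS2.

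SCD, encoding stearoyl-CoA desaturase, had peaks at both ends. At its 5′ end the summit held 55 fragments in DMSO and 36 in inflachromene, a ratio of 0.655, and at its 3′ end 52 and 43. Because the strongest summit of each list was taken, the SCD ratio used below, 0.782, sets 55 at the 5′ end against 43 at the 3′ end. ELOVL5, an elongase gene, had 19 fragments in DMSO (11.4 to 29.7) and 29 in inflachromene (19.4 to 41.6), by pileup the largest excess in inflachromene among the members. At the gene ends ACLY, which makes cytosolic acetyl-CoA from citrate, had 20 and 18 fragments and ACACA, encoding acetyl-CoA carboxylase, 15 and 10.

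SCAP, PMVK, IDI1, ACACA and ACLY read differently when annotated starts were used. Their RefSeq models extend past an annotated start that lies inside the gene, 1186 bp from the nearest end at SCAP and 5939 bp at PMVK. At that SCAP start the summit held 39 fragments in DMSO and 21 in inflachromene, 19 and 24 bp away from the start. At the PMVK start it held 40 and 25. At the inner IDI1 start, on chromosome 10 (DMSO peak 1048866 to 1049548), it held 61 and 36 fragments, against 13 in DMSO alone at the end shared with WDR37. ACACA had 54 and 40 fragments at a start 47740 bp inside, and ACLY 43 and 27 at a start 11523 bp inside, each more than at the gene end shared with a neighbour. The absence of SCAP and PMVK from both lists and of IDI1 from the inflachromene list therefore holds for the gene ends only. These starts were examined after the values at the ends had been seen.

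With summits at either end or at any annotated start, 30 members were in both lists, against 7781 of all 19974 genes. TM7SF2 was the 1 member in DMSO alone, against 20.1% of all genes with a DMSO summit by that rule. Such a DMSO summit was present at 48.8% of all genes. FDFT1, ELOVL6 and ACSL1 remained in neither. FDFT1, encoding squalene synthase, had 1 peak inside the gene in each list, with 17 fragments in DMSO 7051 bp from an end and 19 in inflachromene. It has no entry among the promoters used here. ELOVL6, the elongase gene of saturated chains, and ACSL1, an acyl-CoA synthetase gene like ACSL3, had no summit anywhere in the gene or within 1000 bp of it in either list.

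Inflachromene gave the lower pileup at 24 of the 27 members in both lists, against 77.5% of all genes in both lists. It was equal at STARD4 and higher at LSS and ELOVL5. Dividing the inflachromene pileup by that in DMSO gave a median of 0.782 over the 27 members and 0.821 over all genes in both lists. The inflachromene library was inferred to hold 0.965 times as many fragments as DMSO. The mean fragment length was inferred as 152 bp in DMSO and 166 bp in inflachromene. The part of this length difference in the pileups, their ratios and the peak widths was not tested. The medians of the steps were 0.763 for 4 regulators, 0.714 for 5 mevalonate genes, 0.765 for 9 sterol genes and 0.794 for 8 fatty acid genes. The SCD ratio across its ends is itself the median of the 27. With overlapping peaks paired instead, the median was 0.765 over the members, 0.737 over the fatty acid genes and 0.821 over all genes, so the order of the steps depends on that pairing. The ratios of single genes within the mevalonate steps ran from 0.446 to 0.963 and those within the fatty acid steps from 0.443 to 1.53. Single ratios range wider than medians of the same ratios by construction, so these ranges do not compare the steps. With 4 to 9 genes behind each median and no replicate, the medians do not separate the steps.

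**Figure D3:**
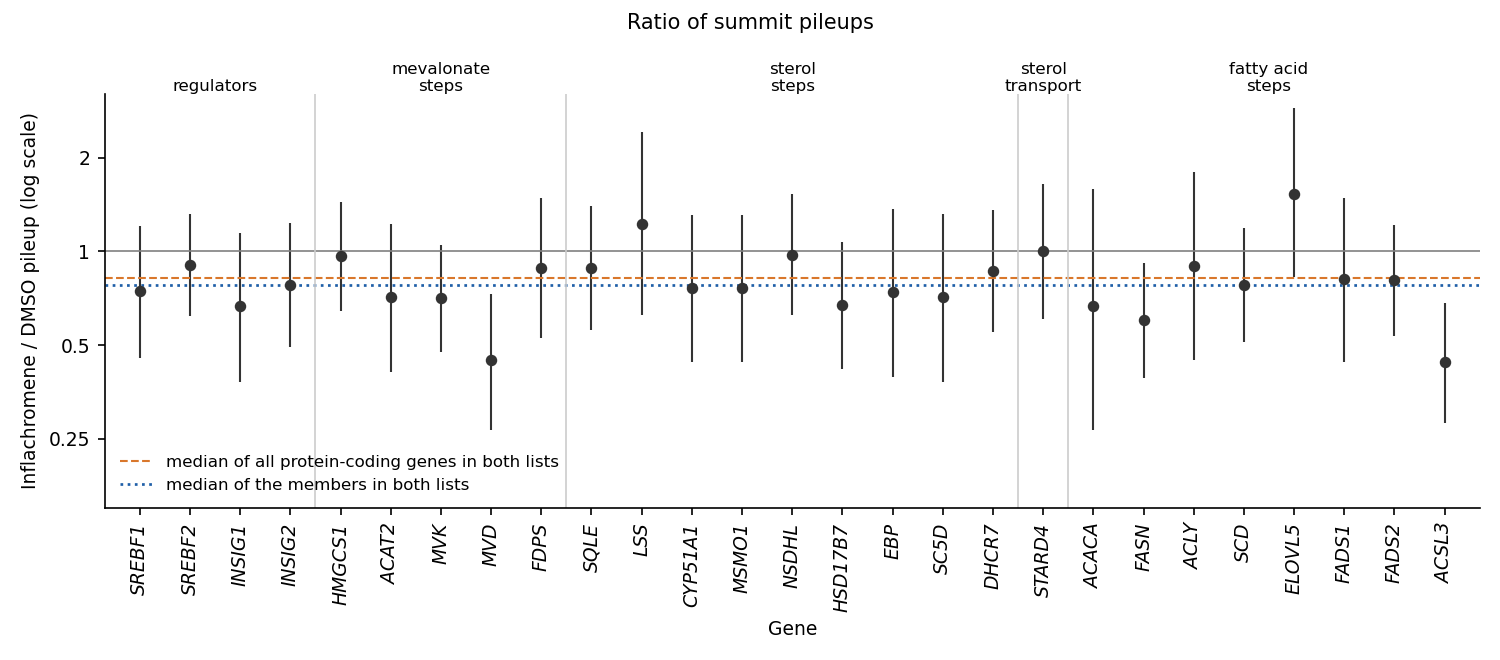
Ratio of inflachromene to DMSO pileup on a log scale for the 27 members in both lists, grouped by step, with exact conditional binomial 95% intervals for counting error only. The dashed line is the median of all protein-coding genes in both lists (0.821) and the dotted line that of the members (0.782); the intervals of MVD, FASN and ACSL3 lie below 1.

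Among the 27 members in both lists, the 3 lowest ratios were those of ACSL3, MVD and FASN. The ratio was 0.443 at ACSL3 (exact interval for counting error 0.280 to 0.685), 0.446 at MVD (0.267 to 0.727) and 0.603 at FASN (0.392 to 0.916). These were the 3 of 27 members whose interval lay below 1, against 8.53% of all genes in both lists, and no interval lay above 1. This count does not set the members apart. The FASN interval held 0.821, the median over all genes in both lists, and those of ACSL3 and MVD lay below it. ACSL3 and MVD had the highest DMSO fold enrichments of all members, 19.7 and 18.3, with 10.5 and 10.1 in inflachromene. Fold enrichment is computed from the same pileups, and a high DMSO pileup lowers the ratio by construction. These values are therefore no separate support for the low ratios. A pileup lower by 1.5-fold or more was seen at 5 members, INSIG1, MVD, ACACA, FASN and ACSL3, against 18.8% of all genes in both lists. Higher by as much was ELOVL5 alone, at 1.53 (0.827 to 2.88), against 1.2%. By fold enrichment the ELOVL5 ratio was 1.23, short of 1.5, and that of LSS was 1.24. At the annotated starts inside the genes the ratio was 0.538 at SCAP (0.301 to 0.938), 0.590 at IDI1 (0.380 to 0.905), 0.625 at PMVK (0.363 to 1.06), 0.628 at ACLY (0.373 to 1.04) and 0.741 at ACACA (0.480 to 1.14).

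The shape and surroundings of the peaks moved little. At 26 of the 27 members the strongest peaks of both libraries overlapped, SCD being the exception, and so they did at 7108 of all 7254 genes in both lists. The median distance between the summits of such pairs was 42 bp at the members and 35 bp over all genes. The inflachromene peak was the narrower at 18 of the 26, or 69.2%, against 69.0% of all such genes. The local background at the summit also differed, with a median ratio of 0.916 at the members and 0.949 over all genes. The fold enrichment, which divides by that background, was lower in inflachromene at 23 of the 26 pairs, or 88.5%, against 78.3% of all such genes, with a median ratio of 0.825 against 0.859. The part of local background in these values was not tested. In DMSO 6 members had a background above 4 fragments, SREBF1, TM7SF2, FASN, SCD, FADS1 and FADS2. The share of all genes with such a background was not computed.

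Promoter sequences of 30 members were in the RefSeq table, with ACAT2, FDFT1, SQLE and FASN missing. Windows from 250 bases before to 50 after each start were searched on both strands for 8 sets of letters. CCAAT, read by NF-Y, was found in 23 of 30 members (76.7%), in 45.6% of the coding genes with a DMSO summit and in 42.1% of all coding genes in the table. It was present in each of the 5 mevalonate genes searched other than PMVK and in both fatty acid synthesis genes ACACA and ACLY, but not in INSIG2, SREBF1, SCAP, CYP51A1, ELOVL6, FADS1 or PMVK. GGGCGG, read by SP factors, was found in 28 of 30 members (93.3%), against 79.0% and 64.3%. The members' promoters were also richer in G and C, with a median of 67.8% against 65.3% for genes with a DMSO summit and 62.3% for all.

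TCACNCCAC was found in 2 members, SREBF2 and an inner start of ACSL1, against 1.38% of genes with a DMSO summit and 1.52% of all coding genes, so that most members with a peak lacked these exact letters in the window. The E-box CACGTG was found in 5 members, namely INSIG1, SCAP, LSS, SC5D and ELOVL5 (16.7%), against 12.9% of genes with a DMSO summit and 10.9% of all coding genes. The ETS letters CCGGAAG were found in 4 (13.3%), against 25.1% of genes with a DMSO summit and 16.5% of all coding genes. TGANTCA was found in 2 (6.67%), between the 5.46% of genes with a DMSO summit and the 8.04% of all coding genes. TATAAA was found in 3 (10.0%), also between the respective 7.19% and 12.4%, and the NRF1 motif in none, against 3.07% and 1.99%. Of all promoter windows in the table, non-coding genes included, 34.6% held CCAAT, 45.0% GGGCGG, 1.13% TCACNCCAC, 7.26% CACGTG, 10.3% CCGGAAG, 7.71% TGANTCA, 11.5% TATAAA and 1.24% the NRF1 motif. A match describes letters and not a bound site.

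**Figure D4:**
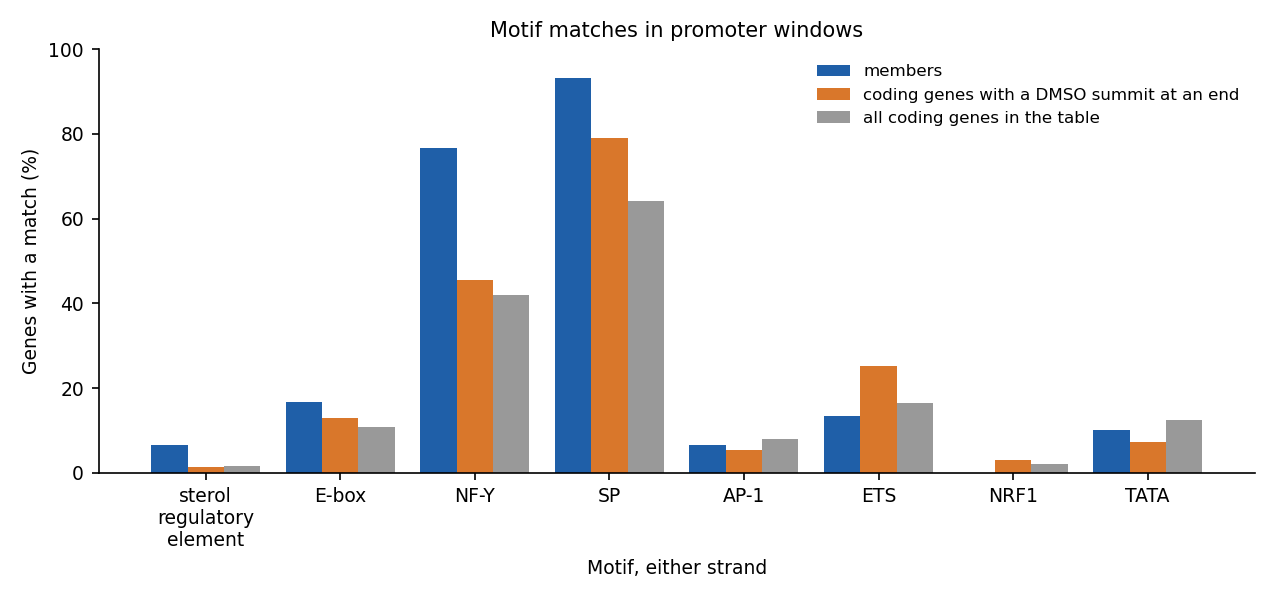
Percent of genes with at least 1 match to each motif, on either strand, in a promoter window of 300 bases, for 30 members, for coding genes with a DMSO summit at an end and for all coding genes in the RefSeq promoter table. CCAAT (labelled NF-Y) is in 76.7% of the members and 45.6% of the genes with a DMSO summit.

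Other genes of these pathways were described in the same way. Of 34 genes for SREBP processing, isoprenoid side branches, sterol efflux and further fatty acid steps, both lists held 15, DMSO alone held 4, and 15 had no summit in either. Over all coding genes 36.3% were in both lists, and 20.6% of those with a DMSO summit were in DMSO alone, a share close to that of these genes. Among those in DMSO alone, HACD3 had 21 fragments, FADS3 had 17 and PDSS1, of ubiquinone synthesis, had 8. HACD2, encoding a dehydratase of fatty acid elongation, had 91 fragments in DMSO and 66 in inflachromene. NUS1, of dolichol synthesis, had 57 and 50, and MYLIP, a ubiquitin ligase gene controlled by the liver X receptors, 46 and 31. Their median ratio was 0.735.

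As a check on the cell type, KRT8 and KRT18, keratin genes of simple epithelia, shared a peak in both lists and KRT19 had one in DMSO alone, while KRT7 and EPCAM had none. Of 15 markers of acinar, islet, immune, endothelial and fibroblast cells, none had a summit in DMSO and CD14 had one of 10 fragments in inflachromene. Peaks do not measure expression.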

How the data were processed

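Each library was represented by 1 deposited narrowPeak list. The tools named per the submitters' processing notes are MACS2 and deepTools 3.5.6, and the build is hg38. Aligner, duplicate handling and control library: not given in the sources used here. The authors deposited a score per peak (not used), the fold enrichment, a ratio over local background, and −log10 values of the summit's p and of its q-value, the lowest q entry being 3.02 (DMSO) and 3.01 (inflachromene). The summit offset was also deposited. These values per peak are the authors'.

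Analysed were 15186 DMSO and 10836 inflachromene peaks on chromosomes 1 to 22 and X, with a median pileup of 23 fragments in each list. The whole-number pileup was recovered by solving MACS2's fold enrichment, (pileup + 1)/(background + 1), and its Poisson p-value together; every peak matched within 0.001. This is an inference from the deposited values. On simulated summits made with the same formulas it returned 2000 of 2000 pileups. The ratio of fragment numbers was inferred from the lowest background and its step size. The highest pileup at a gene's ends stood for the gene in each list. Genes came from RefSeq (GRCh38.p14), whose coordinates equal hg38 on these chromosomes; all 34 symbols matched. Intervals are exact 95% Poisson (pileup) or conditional binomial (ratio) and cover counting error only; fragments without molecular identifiers are not independent molecules. No test was made, since each treatment had 1 library.

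All 34 members are named, with neighbours within 1000 bp of their summits and, of the other pathway genes, those in 1 list alone (1 of them is not reported here) and the 3 with the highest DMSO pileup. Members and lists were chosen with earlier results of these data known. Python 3.11.15, pandas 2.3.3 and scipy 1.17.1 were used. Alternatives were the window, end, overlap rule, q threshold, list length and scale.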

Additional observations from a re-analysis of the deposited data

How the results depend on the processing

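Of 489 values under the alternatives, 472 stayed within the limits set (1.5 times for a count, the counting interval for a ratio), and 17 moved. Many are ratios of single genes that keep the same peaks under most settings, so the count of 472 says little about stability. Wide intervals also hid changes with annotated starts only, from 0.900 to 0.628 at ACLY and from 0.782 to 0.655 at SCD. No ratio whose interval left out 1 changed direction; NSDHL, whose interval held 1, went from 0.977 to 1.01 per fragment, and STARD4, equal in pileup, was at 1.12 by fold enrichment and 1.04 per fragment. The number of members in DMSO alone, 2, was 1 with a window of 2500 bp. There TM7SF2 was in both lists through an inflachromene summit beyond its 3′ end. That number was also 1 with annotated starts only (30 members in the table) and with ends or annotated starts together, the last chosen after the data were seen. With both lists at 10836 peaks it was again 1, and 11.9% of all genes with a DMSO summit were then in DMSO alone. DHCR7 made 1 member in inflachromene alone with a window of 500 bp, and SREBF1 and FADS2 left both lists. Members in neither list, 5, were 2 with annotated starts only and 3 with ends or starts. For the other pathway genes, 4 in DMSO alone became 8 with annotated starts and 2 with equal list lengths, and 15 in neither became 8 with annotated starts. With −log10 q of at least 5, ACACA left the inflachromene list.

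The members' median ratio, 0.782, lay between 0.744 (annotated starts) and 0.823 (ratio of fold enrichments, where all genes had 0.859); per fragment it was 0.811 against 0.852. Over the 18 members whose peak lay at no other coding gene it was 0.773. Members lower by 1.5-fold or more, 5, were 8 with annotated starts or with ends and starts (all genes 18.9% and 18.8%), 3 per fragment (14.6%) and 2 by fold enrichment (10.6%). Pileups of 10 to 70 fragments leave intervals on single ratios that held 1 at 24 of 27 members, so smaller differences were not detectable at this depth. No paired analysis was possible because each treatment had 1 library.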
